A study of Mus musculus with 6 samples.

Results

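The VEGF system of cultured mouse lung endothelial cells was followed through its 5 ligand genes (Vegfa, Vegfb, Vegfc, Figf and Pgf), its 3 receptor tyrosine kinase genes (Kdr, Flt1 and Flt4) and its 2 neuropilin genes (Nrp1 and Nrp2). The 10 genes were taken by symbol from a deposited table of 30055 gene symbols, all 10 were present, and all 10 passed the filter on low counts. Figf is the symbol that table uses for the gene of VEGF-D, which newer annotations call Vegfd. All cells came from the lungs of 3-week-old, female-labelled C57BL6 mice that lack Ch25h, the gene of cholesterol 25-hydroxylase, so the control cells carry the same deletion. One group of cultures received reserpine, a blocker of vesicular monoamine transporters, at 10 µM for 8 h, and then tumor extracellular vesicles (TEV) from MC38 mouse colorectal tumour cells at 20 µg/ml for 12 h. Another received the vesicles without reserpine, and the controls received vehicle alone. Each of these 3 groups held 2 libraries, no group received reserpine without vesicles, and the culture medium of all groups held 15% fetal bovine serum, endothelial cell growth factor and heparin. These treatments are those of the sample labels, whereas the design text leaves room for reserpine in every culture. The sources do not say whether the 2 libraries of a group came from separate cultures or animals, so the p-values below measure only the spread between these libraries.

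VEGF-A binds VEGFR1 (encoded by Flt1) and VEGFR2 (encoded by Kdr), and VEGFR2 carries most of its mitogenic and permeability signal in blood vessel endothelium. VEGFR1 binds VEGF-A tightly but signals weakly and is also made as a soluble form that captures ligand. VEGF-B and placental growth factor (Pgf) bind VEGFR1, whereas VEGF-C and VEGF-D bind VEGFR3 (Flt4), the receptor of lymphatic growth. Cleaved VEGF-C also binds VEGFR2, as does human but not mouse VEGF-D. The neuropilins are co-receptors without a kinase domain that bind both VEGF ligands and class 3 semaphorins.

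In the GENCODE vM21 annotation of GRCm38 the ligand genes lie at chr17:46016993-46032369 (Vegfa), chr19:6982473-6987651 (Vegfb), chr8:54077606-54187096 (Vegfc), chrX:164373378-164402650 (Figf) and chr12:85166635-85177790 (Pgf). The receptor genes lie at chr5:75932827-75978458 (Kdr), chr5:147561604-147726011 (Flt1) and chr11:49609263-49652739 (Flt4), and the neuropilin genes at chr8:128358604-128503363 (Nrp1) and chr1:62703285-62818695 (Nrp2). The promoters of Vegfa, Kdr and Flt1 are shown because these genes encode VEGF-A and its receptors, whose changes are set side by side below. The sequences are from RefSeq (GRCm38.p6), read 5′ to 3′ on the minus strand, on which all 3 genes lie. Each begins 250 bases before the RefSeq start of transcription and ends where the first annotated exon begins. Capitals mark the letters GGAA, the core bound by ETS factors such as Erg and Ets1, or TTCC, its form on the other strand. They cover chr17:46032370-46032627 for Vegfa, chr5:75978459-75978705 for Kdr and chr5:147726012-147726261 for Flt1.
Vegfa: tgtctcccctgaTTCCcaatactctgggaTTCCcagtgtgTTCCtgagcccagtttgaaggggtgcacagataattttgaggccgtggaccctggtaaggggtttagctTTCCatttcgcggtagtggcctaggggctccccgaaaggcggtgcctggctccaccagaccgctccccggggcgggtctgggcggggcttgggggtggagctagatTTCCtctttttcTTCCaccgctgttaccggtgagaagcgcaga
Kdr: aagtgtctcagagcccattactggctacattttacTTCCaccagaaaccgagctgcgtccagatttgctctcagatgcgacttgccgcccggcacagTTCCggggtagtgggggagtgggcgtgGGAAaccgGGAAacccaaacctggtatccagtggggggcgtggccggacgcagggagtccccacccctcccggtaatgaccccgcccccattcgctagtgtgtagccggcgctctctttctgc
Flt1: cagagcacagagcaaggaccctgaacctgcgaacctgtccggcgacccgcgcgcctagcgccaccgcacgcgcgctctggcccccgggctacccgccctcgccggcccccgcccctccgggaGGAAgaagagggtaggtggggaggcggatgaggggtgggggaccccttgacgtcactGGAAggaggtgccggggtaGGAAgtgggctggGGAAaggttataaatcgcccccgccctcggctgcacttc
The Vegfa stretch held 6 matches, all read as TTCC, the Kdr stretch held 2 of GGAA and 2 of TTCC, and the Flt1 stretch held 4, all read as GGAA. These letters are common: 96% of the 32851 promoter windows of 300 bases in the RefSeq table held GGAA on either strand, with a median of 3 matches. ACGTG, a form of the core of the hypoxia response element, was found on either strand in 19.6% of all windows. Among the 12 windows of the 10 genes it was present in 1, as CACGT in the window of an internal Vegfa start. That match, at chr17:46025370-46025374, lay within coding sequence in the GENCODE vM21 annotation. The other form of the core, GCGTG, which the Kdr stretch holds, was not counted. Sites outside these windows were not searched, so the counts do not show whether these genes lack such elements. The E box letters CANNTG were present in 72.3% of all windows and in none of those shown for Vegfa and Flt1.

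Library totals lay between 22270657 and 81225627 estimated counts, and levels are given as CPM, the counts scaled to a common library size, on which 3 counts were 0.0369 CPM in the deepest library and 0.135 CPM in the shallowest. Cdh5, the gene of VE-cadherin, stood at 2827 and 2815 CPM with TEV plus reserpine, at 2272 and 2241 CPM with TEV and at 1751 and 1748 CPM with vehicle. The 10 endothelial markers summed to 9641 and 9422 CPM with TEV plus reserpine, 9624 and 9691 CPM with TEV, and 4805 and 4824 CPM with vehicle. Of these 10 markers, 8 were higher and 2 lower in TEV than in vehicle (25.1% and 24.6% of all genes). The lower ones were Cldn5, the gene of the tight junction protein claudin-5, at 20.2 and 37.3 CPM with TEV and 221 and 219.95 CPM with vehicle, and Tek, the gene of the angiopoietin receptor Tie2, at 82.8 and 85.3 CPM with TEV and 104 CPM in both vehicle libraries. The vehicle libraries stood apart in markers of other cell types. The 10 fibroblast markers summed to 98.0 and 80.6 CPM with TEV plus reserpine, 52.1 and 62.9 CPM with TEV, and 3399 and 2971 CPM with vehicle. The 10 pericyte and smooth muscle markers summed to 215 and 197 CPM with TEV plus reserpine, 126 and 166 CPM with TEV, and 1244 and 1205 CPM with vehicle. Against vehicle, all 9 tested genes of each list were lower in TEV (24.6% of all genes). With TEV plus reserpine 8 and 7 of them were lower (19.9%). Tcf21 and Cspg4 were at 0 in all 4 vesicle libraries, against 0.39 and 0.42 CPM and 17.1 and 15.3 CPM with vehicle. With TEV plus reserpine, Dcn was at 27.7 and 24.2 CPM, against 26.8 and 35.5 CPM with vehicle. Notch3 was at 21.6 and 20.6 CPM, against 24.2 and 22.9 CPM, and Kcnj8 at 1.79 and 4.31 CPM, against 1.53 and 2.09 CPM. The 7 macrophage and leukocyte markers in the table summed to 16.3 and 17.0 CPM with TEV plus reserpine, 13.5 and 12.6 CPM with TEV, and 33.9 and 39.3 CPM with vehicle. Lyz2 made up most of the vehicle sums, at 24.4 and 29.1 CPM there. Of the 6 tested, 1 was higher and 3 were lower in TEV than in vehicle (25.1% and 24.6% of all genes). Cd68 was higher with vesicles, at 9.07 and 8.87 CPM with TEV plus reserpine, 5.28 and 6.33 CPM with TEV, and 3.58 and 2.86 CPM with vehicle. The 3 mesothelial markers summed to 0.763 and 1.04, 0.835 and 1.23, and 19.7 and 18.05 CPM in that order of groups. The sum of the 8 epithelial markers went the other way, at 60.3 and 53.95, 56.9 and 61.0, and 19.9 and 19.65 CPM. Of the 6 epithelial markers tested, 2 were higher and 2 lower in TEV than in vehicle (25.1% and 24.6% of all genes). These marker sums differ with the same contrast as the comparisons of both vesicle groups with vehicle below, and their part in those results was not tested. In such bulk libraries, fewer cells of a type and less RNA per cell cannot be told apart.

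**Figure D1:**
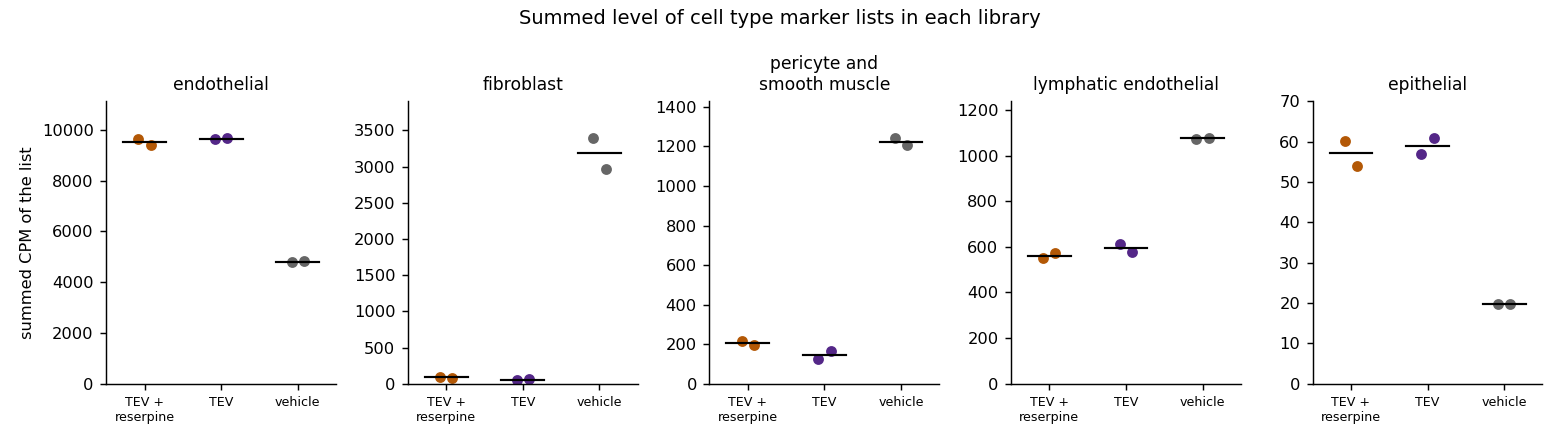
Summed CPM (vertical axis, library totals without further scaling) of 5 marker lists in each library (points) by group, with a bar at the mean of the 2 libraries. The endothelial sum lies between 9422 and 9691 CPM in the 4 vesicle libraries and at 4805 and 4824 CPM with vehicle, whereas the fibroblast sum is at most 98.0 CPM in the vesicle libraries and is 3399 and 2971 CPM with vehicle.

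Most of the called genes of the system were lower in TEV than in vehicle. Against vehicle, 7 of the 10 genes were called in an edgeR quasi-likelihood fit of all 6 libraries at a Benjamini-Hochberg adjusted p under 0.05, 1 higher and 6 lower, beside 49.7% of the 15035 genes tested (25.1% higher and 24.6% lower). The median log2 change of the 10 genes was -0.70, against 0.01 over all genes tested. TEV plus reserpine against TEV gave 6 called genes, 4 higher and 2 lower, beside 31.6% of all genes (15.7% higher and 16% lower), with a median log2 change of 0.34. TEV plus reserpine against vehicle gave 7, 2 higher and 5 lower, beside 39.1% of all genes (19.1% higher and 19.9% lower), with a median log2 change of -0.26. The 3 comparisons share libraries. The called shares of the 10 genes lay above those of all genes, but they rest on only 10 genes and were not tested against these backgrounds. In both comparisons of TEV plus reserpine, fewer of the 10 genes were called when any 1 library of the compared groups was left out. Fewer of all genes were called in those fits too, which leave 1 library in a group.

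**Figure D2:**
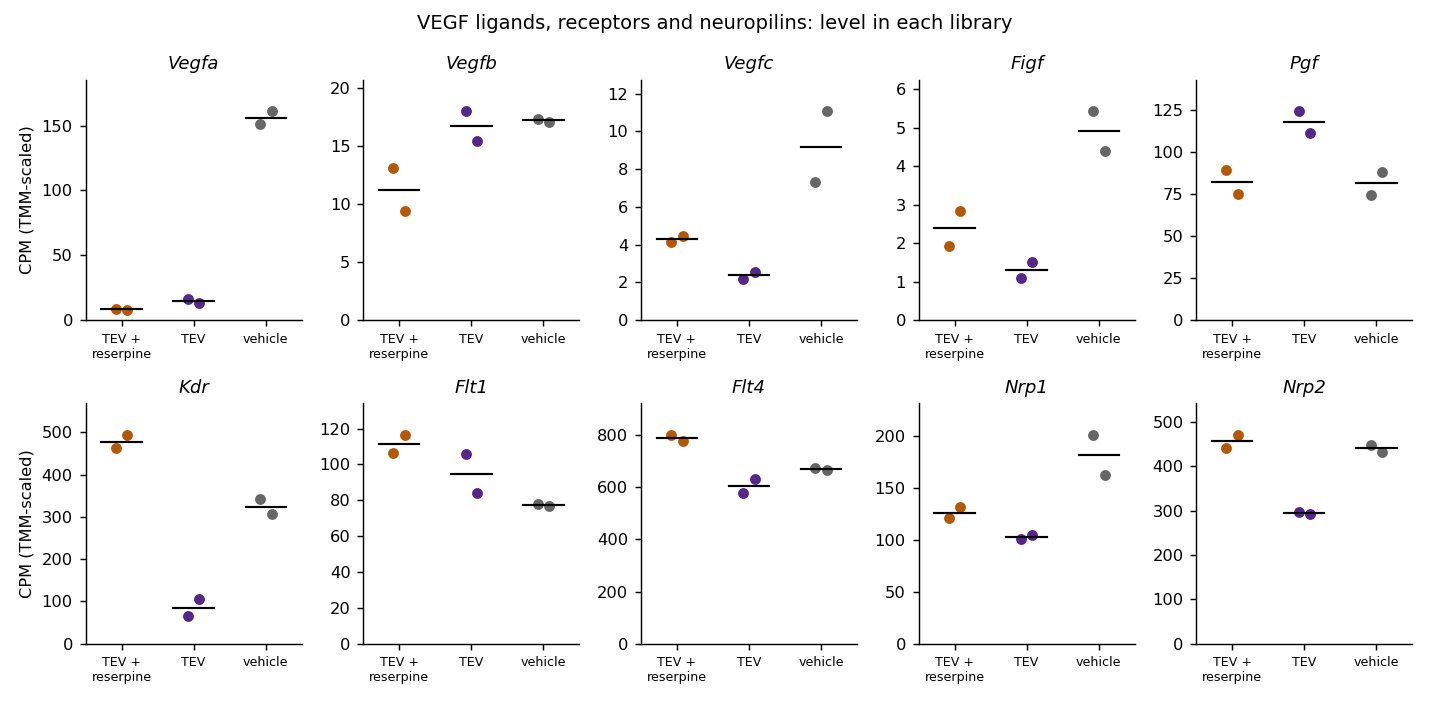
Level of each of the 10 genes (vertical axes, CPM with TMM-scaled library sizes, each from 0) in each library (points) by group, with a bar at the mean of the 2 libraries. Vegfa is at 7.55 to 16.2 CPM in the 4 vesicle libraries and at 151 and 161 CPM with vehicle, and Kdr is at 65.3 and 105 CPM in the TEV libraries alone.

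Among the ligands, Vegfa differed most. It stood at 8.80 and 7.55 CPM with TEV plus reserpine, at 16.2 and 13.4 CPM with TEV and at 151 and 161 CPM with vehicle. The 3 groups did not overlap, and the vehicle libraries were the high ones. Vegfa was lower in TEV than in vehicle by a log2 change of -3.41 ± 0.13 (SE), which is 10.6-fold (edgeR adjusted p = 9.82e-06). It fell further with reserpine, by a log2 change of -0.86 ± 0.14 against TEV (edgeR adjusted p = 0.00569), and stood 19.2-fold below vehicle there (log2 change -4.26 ± 0.14, edgeR adjusted p = 9.09e-06). Relative to the summed endothelial markers of its library, the log2 difference of Vegfa in TEV from vehicle was -4.54. That sum was itself higher in TEV, which lowers every gene on this scale, so this value is no separate support. Among the genes tested against vehicle in TEV, the size of its change ranked 810 of 15035.

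Pgf was the ligand gene with a different direction. It stood at 89.5 and 74.7 CPM with TEV plus reserpine, at 124 and 111 CPM with TEV and at 74.7 and 88.0 CPM with vehicle, so that the TEV libraries were above all the others. It rose in TEV by a log2 change of 0.53 ± 0.13 against vehicle (edgeR adjusted p = 0.0126). It was lower with reserpine by a log2 change of -0.52 ± 0.13 against TEV (edgeR adjusted p = 0.0235), and TEV plus reserpine and vehicle overlapped (log2 change 0.01 ± 0.13, edgeR adjusted p = 0.946). The call in TEV against vehicle was lost without TEV replicate 1 (edgeR adjusted p = 0.0555) or vehicle replicate 1 (0.0794). The call with reserpine against TEV was lost without TEV plus reserpine replicate 2 (log2 change -0.39, edgeR adjusted p = 0.11) or TEV replicate 1 (-0.45, edgeR adjusted p = 0.111). Relative to the endothelial marker sum, which was itself higher in TEV, the direction turned: Pgf was then lower in TEV than in vehicle, with a log2 difference of -0.59.

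Vegfc and Figf, the genes of both VEGFR3 ligands, were scarce and shared a direction. Vegfc stood at 4.15 and 4.48 CPM with TEV plus reserpine, at 2.17 and 2.56 CPM with TEV and at 7.29 and 11.1 CPM with vehicle. Figf stood at 1.92 and 2.84 CPM with TEV plus reserpine, at 1.08 and 1.51 CPM with TEV and at 5.43 and 4.39 CPM with vehicle. For both genes the groups did not overlap, with TEV the lowest and vehicle the highest. In TEV, Vegfc was lower than in vehicle by a log2 change of -1.95 ± 0.26 (edgeR adjusted p = 0.00104). Figf was lower there by -1.90 ± 0.31 (edgeR adjusted p = 0.00273). With reserpine, Vegfc was higher than in TEV by 0.86 ± 0.26 (edgeR adjusted p = 0.0419), a call that was lost when any 1 library of these groups was left out and in limma-voom. The Figf change of 0.87 ± 0.31 did not pass (edgeR adjusted p = 0.0763). Against vehicle, both remained lower with TEV plus reserpine, by -1.08 ± 0.25 for Vegfc (edgeR adjusted p = 0.015) and -1.04 ± 0.31 for Figf (edgeR adjusted p = 0.0363). The Vegfc call there was lost without either TEV plus reserpine library or vehicle replicate 2, and the Figf call without TEV plus reserpine replicate 1 or either vehicle library.

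Vegfb was at 13.1 and 9.39 CPM with TEV plus reserpine, 18.1 and 15.5 CPM with TEV, and 17.4 and 17.1 CPM with vehicle. The TEV libraries lay on either side of the vehicle libraries (log2 change -0.04 ± 0.18, edgeR adjusted p = 0.854), and the sign of this uncalled difference turned in 3 other settings. Vegfb was lower with TEV plus reserpine than with vehicle, by a log2 change of -0.62 ± 0.18 (edgeR adjusted p = 0.0346), a call lost without TEV plus reserpine replicate 2 (0.139) or either vehicle library. Against TEV the change of -0.58 ± 0.18 lay at the threshold (edgeR adjusted p = 0.0511), and 8 of 16 other settings called it, DESeq2 among them (adjusted p = 0.0314).

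Among the receptors, Kdr carried the large change. It stood at 463 and 495 CPM with TEV plus reserpine, at 65.3 and 105 CPM with TEV and at 343 and 306 CPM with vehicle. The TEV libraries were the low ones, and the 3 groups did not overlap. Kdr fell in TEV by a log2 change of -1.92 ± 0.21 against vehicle, which is 3.80-fold (edgeR adjusted p = 0.000494). With reserpine it was 5.60-fold higher than in TEV (log2 change 2.48 ± 0.21, edgeR adjusted p = 0.000842), a change whose size ranked 517 of 15035. Both calls held in all 16 alternative settings. TEV plus reserpine lay above vehicle in both libraries, but the log2 change of 0.56 ± 0.20 did not pass (edgeR adjusted p = 0.069), whereas 6 of 16 settings called it, DESeq2 (0.0158) and limma-voom (0.049) among them. Relative to the endothelial marker sum, itself higher with TEV plus reserpine, Kdr was instead lower there than with vehicle, with a log2 difference of -0.47.

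Flt1 and Flt4 moved little. Flt1 was at 106 and 117 CPM with TEV plus reserpine, 106 and 84.0 CPM with TEV, and 78.0 and 77.0 CPM with vehicle. Its lowest libraries were those of vehicle, and TEV replicate 2 lay close to them. The Flt1 log2 change of TEV from vehicle was 0.29 ± 0.12 and did not pass (edgeR adjusted p = 0.0872), nor did that of 0.23 ± 0.12 with reserpine against TEV (edgeR adjusted p = 0.185). Leaving out 1 library moved these changes to between 0.14 and 0.45 and between 0.09 and 0.40. Without TEV replicate 2 the change from vehicle passed (0.45, edgeR adjusted p = 0.0149). Flt1 passed as higher with TEV plus reserpine than with vehicle (0.52 ± 0.12, edgeR adjusted p = 0.0154), a call lost without TEV plus reserpine replicate 2 or either vehicle library. The values are per gene, so the soluble and membrane forms of Flt1 were not separated.

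Flt4 had the highest level of the receptor genes, at 800.4 and 778 CPM with TEV plus reserpine, 578 and 632 CPM with TEV, and 674 and 664 CPM with vehicle. The order of the groups was that of Kdr, on a much smaller scale. The Flt4 log2 change of TEV from vehicle was -0.14 ± 0.07 and did not pass (edgeR adjusted p = 0.148). With reserpine Flt4 was higher than in TEV (0.38 ± 0.07, edgeR adjusted p = 0.011), and leaving out TEV plus reserpine replicate 1 (0.0543) or TEV replicate 1 (0.0557) ended that call. Its call against vehicle (0.24 ± 0.07, edgeR adjusted p = 0.0418) was lost in 8 of 16 settings. The lymphatic markers Prox1 and Lyve1 were present beside it. Prox1, the transcription factor of lymphatic identity, stood at 72.0 and 78.4 CPM with TEV plus reserpine, 113 and 102 CPM with TEV, and 160.4 and 129.9 CPM with vehicle. Lyve1, a hyaluronan receptor, stood at 270.1 and 276 CPM with TEV plus reserpine, 173 and 204 CPM with TEV, and 241 and 233 CPM with vehicle. The 6 lymphatic markers summed to 551 and 571 CPM with TEV plus reserpine, 614 and 579 CPM with TEV, and 1072 and 1078 CPM with vehicle. Against vehicle, 0 were higher and 5 lower in TEV (25.1% and 24.6% of all genes). With TEV plus reserpine 0 were higher and 4 lower than in vehicle (19.1% and 19.9%). With reserpine against TEV they split, 2 higher and 3 lower (15.7% and 16%). Ccl21a was at most 0.0893 CPM in the vesicle libraries, against 2.44 and 2.40 CPM with vehicle.

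Both neuropilin genes fell in TEV. Nrp1, the co-receptor of VEGF-A and semaphorin 3A, was at 121 and 132 CPM with TEV plus reserpine, 101 and 105 CPM with TEV, and 201 and 162 CPM with vehicle. Nrp2, which binds VEGF-C and semaphorin 3F, was at 442 and 471 CPM with TEV plus reserpine, 297 and 292 CPM with TEV, and 448 and 433 CPM with vehicle. For Nrp1 the vehicle libraries were the high ones, and for Nrp2 the TEV libraries were the low ones. In TEV, Nrp1 was lower than in vehicle by a log2 change of -0.82 ± 0.12 (edgeR adjusted p = 0.00142). Nrp2 was lower there by -0.58 ± 0.07 (edgeR adjusted p = 0.000844). With reserpine, Nrp2 was higher than in TEV by 0.63 ± 0.07 (edgeR adjusted p = 0.00193), and the Nrp1 change of 0.29 ± 0.12 did not pass (edgeR adjusted p = 0.0945). Nrp2 overlapped between TEV plus reserpine and vehicle (0.05 ± 0.07, edgeR adjusted p = 0.599). Nrp1 was lower there (-0.52 ± 0.12, edgeR adjusted p = 0.0123), a call lost without TEV plus reserpine replicate 1 (0.0785) or vehicle replicate 1 (0.0725).

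**Figure D3:**
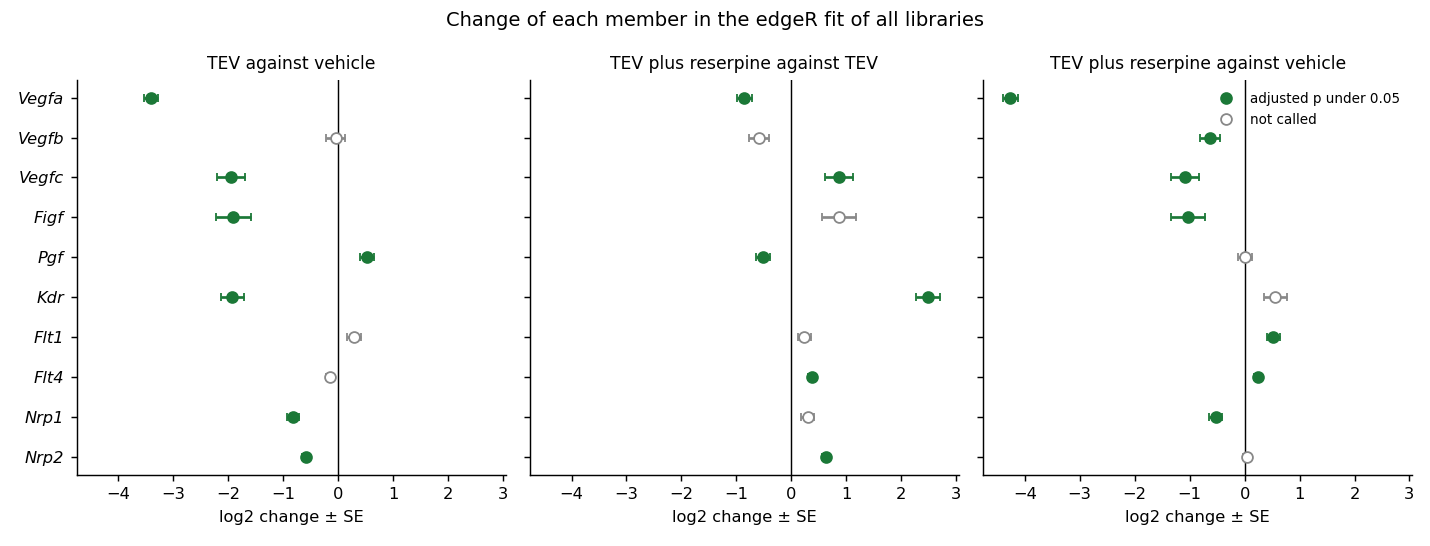
Log2 change (horizontal axis) of each gene in the 3 comparisons from the edgeR fit of all 6 libraries, with bars of 1 SE, filled points for an adjusted p under 0.05 and open points for the rest. Vegfa lies at -3.41 and -4.26 against vehicle, and Kdr lies at -1.92 in TEV against vehicle and at 2.48 in TEV plus reserpine against TEV.

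Set per kilobase of the longest annotated coding transcript, which allows levels of different genes to be compared, Flt4 was the highest of the 10 genes in every group and Vegfc and Figf the lowest. The order with TEV plus reserpine was Flt4 (126 CPM per kilobase), Kdr (80.8), Nrp2 (67.9), Pgf (39.5), Nrp1 (35.1), Flt1 (16.2), Vegfb (8.77), Vegfa (2.37), Vegfc (1.76) and Figf (1.16), as means of 2 libraries. With TEV it was Flt4 (96.8 CPM per kilobase), Pgf (56.6), Nrp2 (43.8), Nrp1 (28.6), Kdr (14.4), Flt1 (13.8), Vegfb (13.1), Vegfa (4.29), Vegfc (0.965) and Figf (0.634). With vehicle it was Flt4 (107 CPM per kilobase), Nrp2 (65.5), Kdr (54.8), Nrp1 (50.5), Vegfa (45.2), Pgf (39.1), Vegfb (13.5), Flt1 (11.2), Vegfc (3.75) and Figf (2.40). Neighbours whose libraries overlapped were Pgf and Nrp1 with TEV plus reserpine, Kdr, Flt1 and Vegfb with TEV, and Kdr, Nrp1 and Vegfa with vehicle. Kdr ranked 2 with TEV plus reserpine and ranked 5 with TEV. The place of Vegfa depends on the length chosen, since its longest coding transcript has 3451 bases and the median of its coding transcripts 1143. With the median length it took rank 1 with vehicle, and 5 ranks there and 2 with TEV changed.

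Among the summed ligand levels per kilobase, Vegfa held 4.36% and 4.50% with TEV plus reserpine, 5.88% and 5.44% with TEV, and 44.3% and 42.8% with vehicle. Pgf held 73.6% and 73.8% with TEV plus reserpine, 74.7% and 75.1% with TEV, and 36.3% and 38.8% with vehicle. Pgf thus made up most of the ligand sum in the vesicle-treated cells. These shares depend on the transcript length chosen. With the median coding length, Vegfa held 10.8% and 11.1% with TEV plus reserpine, 14.4% and 13.3% with TEV, and 67.9% and 66.3% with vehicle, and Pgf still held at least 68.6% in each vesicle library. Of the summed receptor levels, Kdr held 35.3% and 37.1% with TEV plus reserpine, 9.28% and 13.6% with TEV, and 32.7% and 30.6% with vehicle. Flt4 held 57.8% and 55.3% with TEV plus reserpine, 77.8% and 77.1% with TEV, and 60.9% and 62.8% with vehicle, so it took the larger part of the receptor pool in every library.

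Ratios of 2 genes within a library do not depend on the scaling between libraries. The log2 ratio of Kdr to Flt1 was 2.12 and 2.09 with TEV plus reserpine, -0.70 and 0.33 with TEV, and 2.14 and 1.99 with vehicle. The TEV libraries lay below the others, and TEV plus reserpine overlapped with vehicle (difference 0.04). The log2 ratio of Vegfa to Flt1 was -3.60 and -3.95 with TEV plus reserpine, -2.70 and -2.65 with TEV, and 0.95 and 1.07 with vehicle. The log2 ratio of Flt4 to Kdr was 0.79 and 0.65 with TEV plus reserpine, 3.15 and 2.59 with TEV, and 0.97 and 1.12 with vehicle. The log2 ratio of Nrp2 to Nrp1 was 1.87 and 1.84 with TEV plus reserpine, 1.55 and 1.48 with TEV, and 1.16 and 1.42 with vehicle, a smaller spread than that of the other ratios. With 2 libraries against 2, an exact two-sided permutation test cannot give a p below 0.333, which was its value wherever the groups did not overlap.

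**Figure D4:**
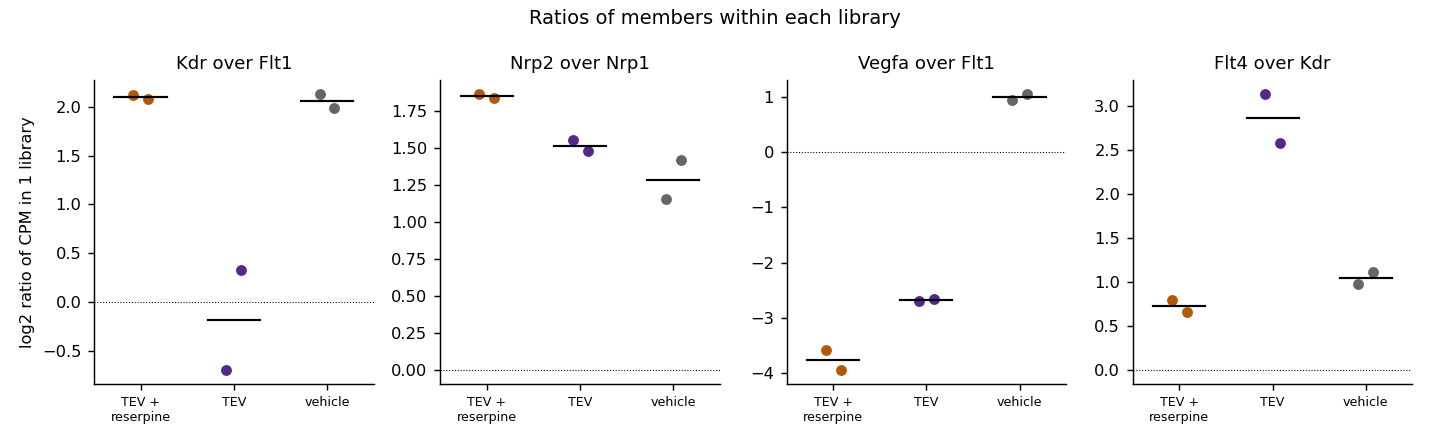
Log2 ratio of CPM of 2 genes within each library (vertical axes, points) by group, with a bar at the mean of the 2 libraries and a dotted line at 0. The Kdr to Flt1 ratio is near 2 with TEV plus reserpine and with vehicle and at -0.70 and 0.33 with TEV.

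For each gene, the genes of the closest pattern were found by the root mean square difference of log2 CPM, centred on each gene's own mean, over the 6 libraries and 10422 candidates. Kdr was closest to Clec14a, a C-type lectin of endothelium, at a difference of 0.06 log2 units, and then to Plau, the gene of urokinase (0.14), and C130074G19Rik (0.14). Clec14a fell in TEV against vehicle (log2 change -1.87) and was higher with reserpine against TEV (2.33). Vegfa was closest to Bcat1, a cytosolic branched-chain aminotransferase (0.13), Dact3 (0.13) and Cadm4 (0.22), and Bcat1 had log2 changes of -3.12 in TEV against vehicle and -0.98 with reserpine against TEV. Genes of a pattern close to that of Vegfc were the cystine transporter gene Slc7a11 (0.14) and Tgfbr3 (0.16). Figf was closest to Kitl, the gene of stem cell factor (0.16), Rassf8 (0.16) and Pyhin1 (0.17). The closest genes of the others, whose own levels varied less, were Ap5s1, Ap5z1 and Preb for Vegfb, Gstm5, Ubr4 and Zfp513 for Pgf, and Cntrl, Nol8 and Rps6-ps4 for Flt1. They were Gm7332, Prdx3 and Nol9 for Flt4, Tia1, Zfhx3 and Snx13 for Nrp1, and Hmgxb4, Cep83 and Csad for Nrp2.

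Genes that act on VEGF receptors at the membrane changed in both directions. Of 21 tested phosphatases, partners and trafficking genes, 9 were higher and 5 lower in TEV than in vehicle, 11 were higher and 6 lower with reserpine than in TEV, and 9 were higher and 2 lower with TEV plus reserpine than in vehicle. Their median log2 changes were 0.17, 0.27 and 0.30 in that order of comparisons, against 0.01, 0 and -0.02 over all genes. In that order 66.7%, 81% and 52.4% of the list were called, beside 49.7%, 31.6% and 39.1% of all genes tested. Ptprb, the gene of the phosphatase VE-PTP that acts on VEGFR2 and Tie2, averaged 282 ± 13.0 CPM with TEV plus reserpine, 896 ± 105 CPM with TEV and 228 ± 20.8 CPM with vehicle (SD, n = 2 each). Its log2 change was 1.97 in TEV against vehicle (edgeR adjusted p = 3.72e-05) and -1.67 with reserpine against TEV (edgeR adjusted p = 0.000461). Epn2, an endocytic adaptor, fell in TEV by a log2 change of -1.29 against vehicle (edgeR adjusted p = 0.00159). Efnb2, the gene of the ephrin that takes part in VEGF receptor endocytosis, was higher with reserpine than in TEV (1.24, edgeR adjusted p = 0.00157). Itgb3 and Itgav encode the chains of the integrin αvβ3. With TEV plus reserpine, Itgb3 was higher (1.16, edgeR adjusted p = 0.000134) and Itgav lower (-1.30, edgeR adjusted p = 0.000858) than in vehicle. In TEV both differed from vehicle in the same directions, with 0.77 for Itgb3 (edgeR adjusted p = 0.000397) and -0.70 for Itgav (edgeR adjusted p = 0.00687).

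Of the 30 genes of signalling below the receptors, 13 were higher and 8 lower in TEV than in vehicle, 4 higher and 8 lower with reserpine than in TEV, and 4 higher and 5 lower with TEV plus reserpine than in vehicle. The called share of this list was 70%, 40% and 30% in these comparisons, beside 49.7%, 31.6% and 39.1% of all genes. The adaptor genes Shb and Nck2 moved in opposite directions. Shb, whose protein binds phosphorylated VEGFR2, had a log2 change of 1.89 in TEV against vehicle (edgeR adjusted p = 5.28e-05) and of -1.32 with reserpine against TEV (edgeR adjusted p = 0.000895). Nck2, an adaptor to the actin cytoskeleton, had -1.91 (edgeR adjusted p = 0.000308) and 1.58 (edgeR adjusted p = 0.0021) in the same comparisons. Nos3, the endothelial nitric oxide synthase gene, was higher than in vehicle with TEV plus reserpine (1.52, edgeR adjusted p = 0.000141) and with TEV (1.36, edgeR adjusted p = 0.000128), and the difference between those groups did not pass (0.15, edgeR adjusted p = 0.295). The Akt1 difference of TEV from vehicle did not pass (0.19, edgeR adjusted p = 0.0894).

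Class 3 semaphorins and their plexin receptors share the neuropilins with VEGF. Of 12 tested, 1 was higher and 6 were lower in TEV than in vehicle, 6 were higher and 2 lower with reserpine than in TEV, and 3 were higher and 7 lower with TEV plus reserpine than in vehicle, with median log2 changes of -0.73, 0.54 and -1.22. Called were 58.3%, 66.7% and 83.3% of them, against 49.7%, 31.6% and 39.1% of all genes tested. Sema3g, a semaphorin of arterial endothelium, averaged 6.72 ± 0.48 CPM with TEV plus reserpine, 1.38 ± 0.54 CPM with TEV and 27.5 ± 3.19 CPM with vehicle (SD, n = 2 each). Its log2 changes were -4.27 in TEV against vehicle (edgeR adjusted p = 5.27e-05) and 2.24 with reserpine against TEV (edgeR adjusted p = 0.00203). Sema3c fell in TEV against vehicle (-2.90, edgeR adjusted p = 0.000329), and Sema3a fell with reserpine against TEV (-1.74, edgeR adjusted p = 0.000704). Plxnd1, an endothelial semaphorin receptor, averaged 1591 ± 87.0 CPM with TEV plus reserpine, 478 ± 133 CPM with TEV and 1303 ± 12.5 CPM with vehicle (SD, n = 2 each), and was higher with reserpine than in TEV (1.74, edgeR adjusted p = 0.0013).

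**Figure D5:**
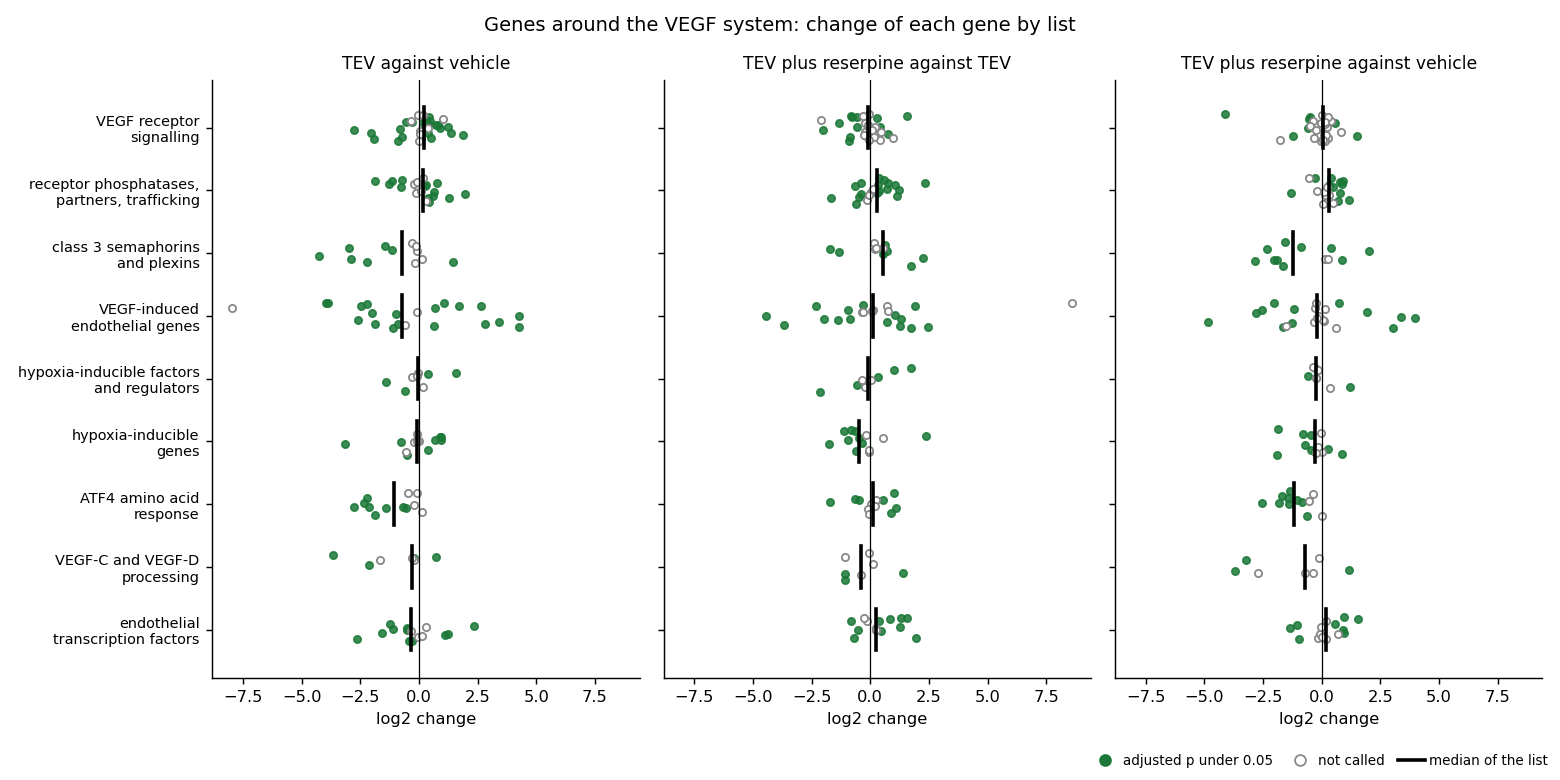
Log2 change (horizontal axis) of each tested gene of 9 lists around the VEGF system in the 3 comparisons, with filled points for an edgeR adjusted p under 0.05, open points for the rest and a bar at the median of the list. The ATF4 list has its median at -1.06 in TEV against vehicle and at -1.18 in TEV plus reserpine against vehicle, and the farthest open points belong to Mef2c, which had no count in the TEV libraries, so their place depends on the fit and is no bound.

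Genes that VEGF is known to induce in endothelium did not move one way. Of 22 tested, 9 were higher and 10 lower in TEV than in vehicle, 7 higher and 8 lower with reserpine than in TEV, and 5 higher and 7 lower with TEV plus reserpine than in vehicle. This is 86.4%, 68.2% and 54.5% of the list, beside 49.7%, 31.6% and 39.1% of all genes. Esm1, a proteoglycan of tip cells, averaged 440.4 ± 8.59 CPM with TEV plus reserpine, 542 ± 55.7 CPM with TEV and 28.1 ± 0.11 CPM with vehicle (SD, n = 2 each). It rose against vehicle in TEV (log2 change 4.27, edgeR adjusted p = 2.18e-06) and in TEV plus reserpine (3.97, edgeR adjusted p = 3.55e-06). Dll4, the Notch ligand of tip cells, averaged 80.3 ± 7.95 CPM with TEV plus reserpine, 14.3 ± 2.80 CPM with TEV and 87.6 ± 3.32 CPM with vehicle, and was higher with reserpine than in TEV (2.48, edgeR adjusted p = 0.000342). Stc1, a secreted glycoprotein, rose in TEV against vehicle (4.28, edgeR adjusted p = 4.37e-05) and was lower with reserpine than in TEV (-4.45, edgeR adjusted p = 3e-04). F3, the gene of tissue factor, and Bmp2 fell in TEV against vehicle, by log2 changes of -3.94 (edgeR adjusted p = 1.97e-05) and -3.89 (edgeR adjusted p = 7.37e-05).

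Hypoxia-inducible factors are regulators of Vegfa transcription. Of 8 tested hypoxia-inducible factors and regulators, 2 were higher and 2 lower in TEV than in vehicle, 3 higher and 2 lower with reserpine than in TEV, and 1 higher and 2 lower with TEV plus reserpine than in vehicle. With 50%, 62.5% and 37.5% called, against 49.7%, 31.6% and 39.1% of all genes, the first and last of these shares lie at the background. Hif1a averaged 257 ± 22.2 CPM with TEV plus reserpine, 1147 ± 209 CPM with TEV and 379 ± 40.3 CPM with vehicle (SD, n = 2 each). It was higher in TEV than in vehicle (log2 change 1.60, edgeR adjusted p = 0.000235) and lower with reserpine than in TEV (-2.16, edgeR adjusted p = 0.000482). These are RNA levels, and a part of these factors in the Vegfa changes was not tested. Epas1, which encodes HIF-2α, was higher with TEV plus reserpine than in TEV (1.00, edgeR adjusted p = 0.00236) and than in vehicle (1.19, edgeR adjusted p = 0.000599). Egln3, a prolyl hydroxylase gene, fell in TEV against vehicle (-1.40, edgeR adjusted p = 0.0014).

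Of 13 hypoxia-inducible genes other than Vegfa, 5 were higher and 3 lower in TEV than in vehicle, 1 higher and 8 lower with reserpine than in TEV, and 2 higher and 7 lower with TEV plus reserpine than in vehicle. The called share was 61.5%, 69.2% and 69.2%, beside 49.7%, 31.6% and 39.1% of all genes. Slc2a1, the glucose transporter GLUT1, rose in TEV against vehicle (log2 change 0.95, edgeR adjusted p = 0.000208), as did the glycolytic gene Pgk1 (0.88, edgeR adjusted p = 0.000186). Ndrg1 fell there (-3.15, edgeR adjusted p = 9.82e-06) and was higher with reserpine than in TEV (2.37, edgeR adjusted p = 0.000225). Of 12 genes of the amino acid response to ATF4, a factor that can also raise Vegfa, 0 were higher and 8 lower in TEV than in vehicle, and 0 higher and 9 lower with TEV plus reserpine than in vehicle, with median log2 changes of -1.06 and -1.18. With reserpine against TEV, 4 were higher and 3 lower. A part of ATF4 in the Vegfa changes was not tested. Of this list 66.7% were called for TEV against vehicle (49.7% of all genes), 58.3% for reserpine with TEV against TEV (31.6%) and 75% for both agents against vehicle (39.1%). Atf4 itself, a member of the list, did not pass in TEV against vehicle (log2 change 0.14, edgeR adjusted p = 0.343), nor did its difference between TEV plus reserpine and vehicle (-0.35, edgeR adjusted p = 0.0524), and was lower with reserpine than in TEV (-0.50, edgeR adjusted p = 0.0209). Asns, asparagine synthetase, fell in TEV by a log2 change of -2.23 (edgeR adjusted p = 7.4e-06), the transcription factor gene Ddit3 by -2.79 (edgeR adjusted p = 1.97e-05) and the amino acid transporter gene Slc7a5 by -2.32 (edgeR adjusted p = 1.18e-05), each against vehicle.

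VEGF-C and VEGF-D are made as precursors that proteases process. Of 7 tested genes of that processing, 1 was higher and 3 were lower in TEV than in vehicle, 1 was higher and 2 lower with reserpine than in TEV, and 1 was higher and 2 lower with TEV plus reserpine than in vehicle. These are 57.1%, 42.9% and 42.9% of only 7 genes, beside 49.7%, 31.6% and 39.1% of all genes. Ccbe1, the secreted cofactor that promotes VEGF-C cleavage, averaged 4.37 ± 0.56 CPM with TEV plus reserpine, 9.43 ± 1.63 CPM with TEV and 41.2 ± 0.767 CPM with vehicle (SD, n = 2 each). It was lower than vehicle in TEV (log2 change -2.13, edgeR adjusted p = 0.000104) and in TEV plus reserpine (-3.23, edgeR adjusted p = 5.48e-05). Adamts14, a protease of the same step, was also lower than vehicle in TEV (-3.65, edgeR adjusted p = 2.45e-05) and in TEV plus reserpine (-3.69, edgeR adjusted p = 5.36e-05). Both are also matrix genes of fibroblasts, whose marker sum was lower in the same libraries, and the part of those cells was not tested. Furin, the proprotein convertase that cleaves the VEGF-C precursor, rose in TEV against vehicle (0.72, edgeR adjusted p = 0.00341) and was lower with reserpine than in TEV (-1.07, edgeR adjusted p = 0.00207).

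Of 15 endothelial transcription factors, several of which bind ETS or SOX sites in VEGF receptor genes, 3 were higher and 8 lower in TEV than in vehicle, 7 higher and 3 lower with reserpine than in TEV, and 5 higher and 3 lower with TEV plus reserpine than in vehicle. The shares called were 73.3%, 66.7% and 53.3%, beside 49.7%, 31.6% and 39.1% of all genes. Gata2 rose against vehicle in TEV (log2 change 2.36, edgeR adjusted p = 1.43e-05) and in TEV plus reserpine (1.54, edgeR adjusted p = 0.000111). Erg rose in TEV against vehicle (1.26, edgeR adjusted p = 0.000569). A part of these factors in the receptor changes was not tested. Sox7 was higher with reserpine than in TEV (1.25, edgeR adjusted p = 0.00244), as was the Notch target gene Hey1 (1.58, edgeR adjusted p = 0.00291), which fell in TEV against vehicle (-2.63, edgeR adjusted p = 0.000129). Ets1 was not called in any comparison; its log2 change with reserpine against TEV was 0.23 (edgeR adjusted p = 0.0645).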

How the data were processed

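RNA of 6 libraries was sequenced as 75 bp single-end reads from poly-A TruSeq libraries, per the labels' protocols. Per the submitters' processing notes, kallisto 0.45.0, R 4.0.0, edgeR, limma and the build GRCh38 were used. The gene symbols are those of mouse, and no source used here gives the strand, so overlapping and antisense genes are not told apart. The authors deposited estimated counts per gene symbol, and 99.9% of the nonzero values are not whole within 1e-06. Their filtered table of 13098 genes holds the same values as the raw one.

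Counts were rounded, filtered with filterByExpr to 15035 genes, scaled with TMM factors of 0.9406 to 1.0436 and fitted in 1 edgeR 4.0.16 quasi-likelihood model of all 6 libraries (R 4.3.3, 3 residual degrees of freedom), with Benjamini-Hochberg adjustment within a comparison. CPM were computed here with TMM-scaled library sizes, and marker sums without TMM factors. The SE is the size of the unshrunk log2 change divided by the square root of the F statistic. Transcript lengths are from GENCODE vM21 and promoters from RefSeq (GRCm38.p6), in which all 10 genes had a window. The fit was run on simulated data in which few genes were changed, so that run does not cover shifts as wide as those of these data.

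Groups follow the sample labels. Replicate numbers are those of the titles, and the descriptions number both vesicle groups 2 and 3. The 10 genes and all lists were chosen with earlier results of these data known. Named besides the 10 were the 3 genes of closest pattern per gene (mean of at least 5 CPM, prior count 0.5), of which 1 is not reported here, and, from each list and comparison, up to 4 called genes of the largest change and up to 2 uncalled ones of the highest level. Which of these were named was decided after their values were seen, and markers and values in other comparisons were named outside that rule. Alternatives used limma 3.58.1 and DESeq2 1.42.0, other filters, scalings, thinning, replicate blocks and leaving out each library. A planned comparison of protein sequences was not run.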

Additional observations from a re-analysis of the deposited data

How the results depend on the processing

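The 16 alternative settings gave 480 values for the 30 changes of the 10 genes, of which 38 lost a call, 17 gained one and 7 turned the sign of an uncalled change. The calls of Vegfa in all 3 comparisons, of Kdr and Nrp2 in the comparisons that involve TEV, and of Vegfc, Figf and Nrp1 in TEV against vehicle held in all 16. The sign of Vegfb in TEV against vehicle turned when the libraries were thinned to the smallest (0.061), under the description-number block (0.139) and without TEV replicate 2, where leave-one-out values ran between -0.139 and 0.065. The sign of Pgf in TEV plus reserpine against vehicle turned with library sizes alone (-0.034), under the description-number block (-0.001), without TEV plus reserpine replicate 1 (-0.107) and without vehicle replicate 1 (-0.100), with leave-one-out values between -0.107 and 0.141. Relative to the summed endothelial markers, all 10 genes were lower than vehicle in both vesicle groups. This alternative was chosen after seeing the data, as was the median length. It turned Pgf (-0.59) and Flt1 (-0.85) in TEV and Pgf (-1.02), Kdr (-0.47), Flt1 (-0.51), Flt4 (-0.79) and Nrp2 (-0.98) in TEV plus reserpine. The TMM-scaled sum was itself 4634 and 4624 CPM with vehicle, 10240 and 10020 CPM with TEV, and 9590 and 9334 CPM with TEV plus reserpine. A gene of unchanged CPM would therefore also come out lower, so the count of 10 is not particular to these genes.

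Leaving out 1 library gave between 6 and 8 called members in TEV against vehicle, between 3 and 6 in TEV plus reserpine against TEV and between 2 and 8 in TEV plus reserpine against vehicle, and between 5381 and 7430, 2124 and 4315, and 3572 and 5950 genes in that order. With library sizes alone, the median log2 change of all genes was -0.113 in TEV against vehicle and 0.079 in TEV plus reserpine against TEV. The called genes then split into 2968 higher and 4497 lower, against 3773 and 3703 with TMM, and in TEV plus reserpine against TEV into 2857 and 1954, against 2354 and 2403. The summed level of the 10 genes without TMM factors was 1274 CPM with TEV and 2040 CPM with vehicle, against 1336 and 1962 CPM with them.

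No label says that replicate numbers pair libraries. The deviations of same-numbered libraries from their group means had correlations of 0.004, -0.039 and -0.024 over 10431 genes. With 2 libraries a group, these values cannot show whether same-numbered libraries shared a culture, animal or batch. The replicate block by title number called 6864, 3840 and 5094 genes, and among the 10 genes it moved Vegfb in TEV plus reserpine against TEV past the threshold (adjusted p = 0.0446) and Flt4 in TEV plus reserpine against vehicle out of it (0.0809). The block by description number called 4568 genes in TEV against vehicle, 2702 in TEV plus reserpine against vehicle, and 2 of the 10 genes there. Both blocks, and the fits of fewer libraries, leave fewer residual degrees of freedom than the 3 of the main fit. The causes of these shifts were otherwise not tested. With 2 libraries a group, small changes cannot be told from the spread between libraries, and Figf rests on 38.6 to 234 estimated counts a library.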
